A study of Mus musculus with 6 samples.

Results

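The genes described here are 10 genes of microglia and of the complement cascade, picked by name for their roles in microglial identity and in synapse pruning. They are C1qa, C1qb, C1qc, C3, Itgam, Cx3cr1, Csf1r, P2ry12, Tmem119 and Trem2. All 10 were found by symbol among the 47794 genes of the deposited table. The RNA came from primary somatosensory cortex of C57BL/6 mice at postnatal day 14. The β-cat overexpression group, called Ovp here, had 3 libraries from mice of the genotype β-cat lox(ex3);Nex-Cre, in which exon 3 of the β-catenin gene is flanked by loxP sites and Cre is present. The Ctrl group had 3 libraries from β-cat lox(ex3) mice, which carry the same allele without Cre. Loss of exon 3 gives a β-catenin protein that escapes degradation, and Nex-Cre acts in excitatory neurons of the forebrain, so microglia are not the cells in which it is known to recombine. The study compared Ovp with Ctrl cortex, and here the comparison shows the levels of microglial and complement transcripts in whole tissue. In such bulk RNA, fewer microglia and less RNA per microglial cell cannot be told apart.

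Microglia are the resident macrophages of the brain and take up synaptic material while cortical circuits mature. In the classical complement pathway, C1q binds a target and starts a protease cascade that leaves fragments of C3 on its surface, and complement receptor 3, whose α chain is encoded by Itgam, lets microglia engulf what C3 has tagged. Survival, position and state of microglia depend on surface receptors such as CSF1R, CX3CR1, P2RY12 and TREM2.

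Each gene had 1 deposited value per group, a mean of scaled read counts, that is of reads divided by their library's scaling factor. Values per library were recovered by finding the whole reads of 3 libraries that give a mean to its last digit. The letters A, B and C name the libraries of each group by scaling factor, since their replicate numbers are unknown. Scaling factors follow depth and ran from 0.966 to 1.23 in Ovp and from 0.907 to 0.982 in Ctrl libraries. The group totals were 18602579 in Ovp and 19016749 in Ctrl cortex. Markers of excitatory neurons, the main cells of cortex, were abundant, with Camk2a at 63088 in Ovp and 66769 in Ctrl cortex. Neurod6, the gene at which Cre is inserted in Nex-Cre mice, was at 1199 in Ovp and 1942 in Ctrl cortex. Ctrl library B stood apart in the choroid plexus gene Ttr, with a scaled read count of 713 against 76.4 in Ctrl A and 79.4 in Ctrl C. Ctrl A was the only Ctrl library with reads of the Y-linked gene Kdm5d (658 reads, and 0 in Ctrl B and Ctrl C). For Kdm5d 1 of the 2 combinations that fitted in Ovp cortex placed all 1000 reads in Ovp A. The Y-linked genes Ddx3y and Eif2s3y had 1061 and 1155 reads in Ctrl A and 0 in Ctrl B and Ctrl C. In Ovp cortex 1 of 2 combinations of Ddx3y placed 1307, 0 and 1 reads in A, B and C. For Eif2s3y 1 of 6 placed all 1799 reads in Ovp A. The other combinations of these 3 genes gave reads to all 3 Ovp libraries. Since only Ctrl A among the Ctrl libraries held Kdm5d reads, these libraries did not all come from the same RNA. Nothing in the labels ties a library to an animal of its own. The p-values here therefore measure the spread between these samples only, which may be technical in part.

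None of the 10 genes passed the threshold, higher or lower. In the authors' deposited table all 10 had an adjusted p of 1, and 0 of 10 had an unadjusted p under 0.05 in either direction. Over all 30152 genes the authors tested, 0.0% were higher and 0.0% lower in Ovp cortex with an adjusted p under 0.05. At an unadjusted p under 0.05, 0.328% of tested genes were higher and 0.206% lower, so 0 of 10 is near the background. Of the 10 genes, 6 had a higher and 4 a lower mean in Ovp cortex. Their median log2 fold change, Ovp over Ctrl, was 0.026, with a range of -0.097 to 0.12. The median over all tested genes above 0 in both groups was -0.0086, and over genes whose mean reached 100 it was -0.017. The summed mean scaled read count of the 10 genes was 5662 in Ovp and 5545 in Ctrl cortex.

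Library values were recovered in both groups for 7 of the 10 genes. The 6 of them with a mean of at least 10 entered the limma fit over 10053 genes. No gene of that fit passed an adjusted p under 0.05 (0.0% higher and 0.0% lower), and 1.4% were higher and 0.666% lower at an unadjusted p under 0.05. The limma shares, too, are below what evenly spread p-values would give. Among the 6 genes 0 passed either threshold. The groups overlapped for all 6. Of all fitted genes, 4.37% had every Ovp library above every Ctrl library and 2.74% had every Ovp library below, together 7.1%.

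**Figure D1:**
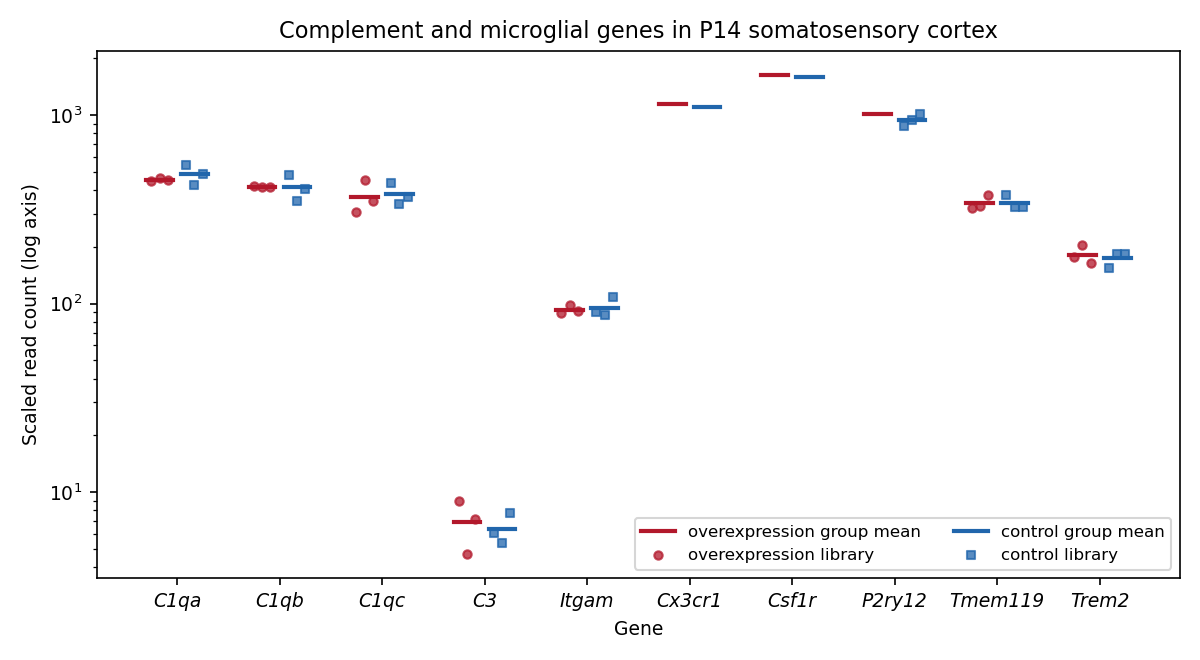
Scaled read counts (log axis) of the 10 genes in Ovp (overexpression, red, left of each pair) and Ctrl cortex (control, blue, right). Lines are the deposited group means and points are recovered libraries, which are missing for Cx3cr1, Csf1r and the Ovp side of P2ry12; within each gene the lines of both groups lie close together, from C3 at 6.97 and 6.41 up to Csf1r at 1639 and 1597.

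The C1q genes encode the A, B and C chains of the C1q molecule, the recognition unit of the classical pathway, which is made mainly by microglia in the brain. C1qa had a mean of 454 in Ovp and 485 in Ctrl cortex, C1qb had 418 and 414, and C1qc had 370 and 381 in the same order of groups. The 3 genes lie in a row on the minus strand of chromosome 4 within 18.7 kb, C1qb (ENSMUSG00000036905) at chr4:136880129-136886187, C1qc (ENSMUSG00000036896) at chr4:136889804-136893065 and C1qa (ENSMUSG00000036887) at chr4:136895917-136898803 (GENCODE M21 annotation of GRCm38). What build the authors used was not given in the sources used here.

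Upstream sequence of C1qb and C1qc, 250 bases each, is shown because no RefSeq window was found for their neighbour C1qa. Each of the C1q genes, C1qa included, followed the same order over the Ctrl libraries. The sequences are from RefSeq (GRCm38.p6), minus strand, read 5′ to 3′ towards the start site, at chr4:136886201-136886450 for C1qb and chr4:136892915-136893164 for C1qc. RefSeq and GENCODE M21 place the starts at different bases, and part of the window shown for C1qc lies inside the gene as GENCODE M21 gives it; motif distances are from the RefSeq start. Capitals mark GAGGAA or its reverse complement, the core bound by PU.1, a transcription factor of macrophages and microglia.
C1qb: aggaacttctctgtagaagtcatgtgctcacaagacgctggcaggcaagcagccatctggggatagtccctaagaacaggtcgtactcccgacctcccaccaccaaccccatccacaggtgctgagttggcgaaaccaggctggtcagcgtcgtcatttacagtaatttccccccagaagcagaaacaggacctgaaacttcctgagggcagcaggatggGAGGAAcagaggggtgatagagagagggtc
C1qc: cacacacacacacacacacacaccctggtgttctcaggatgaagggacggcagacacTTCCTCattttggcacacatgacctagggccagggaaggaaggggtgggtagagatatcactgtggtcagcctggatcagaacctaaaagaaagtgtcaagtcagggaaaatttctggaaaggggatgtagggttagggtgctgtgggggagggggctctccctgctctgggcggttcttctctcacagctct
C1qb held 1 forward copy, beginning 30 bases before the RefSeq start site, and C1qc held 1 copy on the other strand, beginning 193 bases before it. RefSeq windows were found for 7 of the 10 genes (C1qb, C1qc, C3, Itgam, Cx3cr1, P2ry12 and Trem2). Searched on both strands, GAGGAA was present in 4 of the 7 (C1qb, C1qc, Itgam and Trem2) and in 23.3% of the 32851 upstream windows of all genes. The longer ETS-IRF composite element, which PU.1 binds together with an IRF factor, was in 0 of the 7 and in 2.3% of all windows. Both motifs hold the letters GGAA and could overlap. A match is only a match of letters.

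C1qa had scaled read counts of 448, 462 and 451 in Ovp A, B and C, against 543, 428 and 485 in Ctrl A, B and C. The Ovp libraries lay within the Ctrl range, which was wider. The limma log2 fold change was -0.090, with a 95% interval of -0.30 to 0.12, an unadjusted p of 0.378 and an adjusted p of 0.9995, so folds from 0.81 to 1.09 lay inside the interval. For the Ovp mean, 3 combinations of whole reads fitted. The one used was the only one with each library within 2-fold of the mean, and the other two had a library at 94.5 or at 211.

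C1qb had 423, 414 and 416 in Ovp A, B and C, against 482, 351 and 408 in Ctrl A, B and C. Again the Ovp libraries sat together inside a wider Ctrl range. The limma log2 fold change was 0.026 (95% interval -0.22 to 0.27, adjusted p = 0.9995).

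C1qc had 305, 455 and 350 in Ovp A, B and C, against 439, 337 and 368 in Ctrl A, B and C. Here the Ovp libraries were the more widely spread, with library B highest and library A lowest of all 6. The limma log2 fold change was -0.056 (95% interval -0.38 to 0.27, adjusted p = 0.9995). A second combination fitted the Ovp mean, with library C at 110 and library A at 553, and was set aside by the same 2-fold rule.

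The 3 chains summed to 1176, 1331 and 1217 in Ovp A, B and C, against 1463, 1116 and 1262 in Ctrl A, B and C. In Ctrl cortex each chain was highest in library A and lowest in library B, while the Ovp libraries shared no such order. The coefficient of variation of C1qa was 1.62% between Ovp libraries and 11.8% between Ctrl libraries, that of C1qb was 1.11% and 15.8%, and that of C1qc was 20.8% and 13.7%. These values were set beside those of fitted genes within 1.2-fold of the same mean, whose median was 7.73% in Ovp and 7.37% in Ctrl for C1qa, 7.86% and 7.59% for C1qb, and 8.24% and 7.84% for C1qc. In Ovp, 4.02% of such genes had a smaller coefficient than C1qa, 1.42% than C1qb and 93.7% than C1qc. In Ctrl the shares were 79.5% for C1qa, 91.0% for C1qb and 84.2% for C1qc. Counting of reads alone would give 4.53% for C1qa, 4.72% for C1qb and 5.03% for C1qc in Ovp. In Ctrl it would give 4.68%, 5.07% and 5.28% in the same order of genes. The Ovp coefficients of C1qa and C1qb lay below this, so they do not measure how uniform the levels were. The ratio of C1qc to C1qb was 0.721, 1.1 and 0.841 in Ovp A, B and C, and 0.911, 0.96 and 0.903 in Ctrl A, B and C. That of C1qa to C1qc was 1.47, 1.02 and 1.29 in Ovp and 1.24, 1.27 and 1.32 in Ctrl libraries. That of C1qa to C1qb was 1.06, 1.12 and 1.08 in Ovp and 1.13, 1.22 and 1.19 in Ctrl libraries. Every Ovp library was lower in this last ratio. How often ratios of other gene pairs part in this way was not computed.

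**Figure D2:**
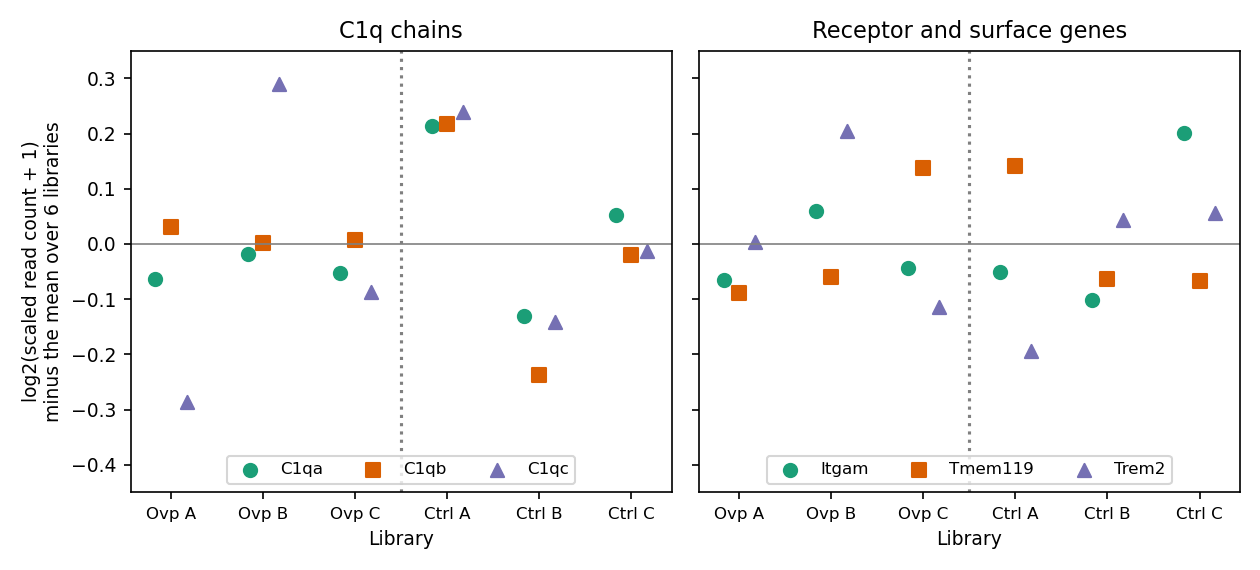
Recovered values of 6 genes in each library, as log2(scaled read count + 1) minus the gene's own mean over the 6 libraries, with Ovp libraries left and Ctrl libraries right of the dotted line. Left, the C1q chains lie near each other in each Ctrl library, high in A and low in B, while C1qc parts from the others in Ovp A and B; right, Itgam, Tmem119 and Trem2 share no such order.

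C3 (ENSMUSG00000024164; chr17:57203970-57228136, minus strand) encodes the central complement component, whose fragments tag surfaces for uptake. It was close to the limit of detection in both groups, with 11, 5 and 7 reads in Ovp A, B and C and 6, 5 and 7 reads in Ctrl A, B and C. As scaled read counts these were 8.96, 4.71 and 7.24 in Ovp and 6.11, 5.4 and 7.72 in Ctrl libraries. The groups overlapped, as they did for all but 9.24% of the 6615 recovered genes with a mean of 1 to under 10. The authors' deposited table gave p = 0.916. With a mean of 6.97 in Ovp and 6.41 in Ctrl cortex, C3 was not fitted by limma, and no difference was detectable at this depth.

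Itgam (ENSMUSG00000030786; chr7:128062640-128118491, plus strand) encodes CD11b, the α chain of complement receptor 3. It had 89.6, 97.9 and 91.1 in Ovp A, B and C, against 90.6, 87.5 and 108 in Ctrl A, B and C. The groups overlapped, with Ctrl C highest. The limma log2 fold change was -0.033 (95% interval -0.39 to 0.32, adjusted p = 0.9995). Its partner Itgb2, the shared β chain, was at 49.9 in Ovp and 57.4 in Ctrl cortex, and the authors' deposited table gave it p = 0.437. In the GENCODE M21 annotation exons of Itgam overlap Gm49368 on the same strand, a gene at 0 in both groups. Reads in the overlap may be missing from the Itgam count.

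The surface receptor genes Csf1r, Cx3cr1 and P2ry12 had the highest read counts of the 10 genes. Csf1r (ENSMUSG00000024621; chr18:61100598-61132149, plus strand), the receptor for the survival factors CSF1 and IL-34, had a mean of 1639 in Ovp and 1597 in Ctrl cortex (log2 fold change 0.037; p = 0.846 in the authors' deposited table). Cx3cr1 (ENSMUSG00000052336; chr9:119901616-120069879, minus strand), the receptor for the neuronal chemokine fractalkine, had 1144 in Ovp and 1104 in Ctrl cortex (0.052; p = 0.773 in the authors' deposited table). P2ry12 (ENSMUSG00000036353; chr3:59216272-59262871, minus strand), a nucleotide receptor that directs microglial processes, had 1015 in Ovp and 944 in Ctrl cortex (0.10; p = 0.45 in the authors' deposited table). For each of these genes the group means lay within 1.1-fold of each other, and 83.5% of genes whose mean reached 100 did so too. Library values of Csf1r and Cx3cr1 could not be resolved, because many combinations fitted their means. For P2ry12 only the Ctrl libraries were resolved, at 879, 944 and 1010 in A, B and C, and the Ovp mean of 1015 lay just above the highest of them. In the GENCODE M21 annotation exons of Csf1r overlap Hmgxb3, those of P2ry12 overlap Med12l and those of Cx3cr1 overlap Gm33858, each on the opposite strand, so their counts may hold reads of the other gene; the strand setting is not given in the sources used here.

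Tmem119 (ENSMUSG00000054675; chr5:113793729-113800516, minus strand) encodes a membrane protein that sets microglia apart from other macrophages. It had 322, 328 and 377 in Ovp A, B and C, against 378, 327 and 326 in Ctrl A, B and C. One library was high in each group and the rest lay together. The limma log2 fold change was -0.0064 (95% interval -0.24 to 0.23, adjusted p = 0.9995), and for the Ovp mean a second combination, with library C at 137, was set aside.

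Trem2 (ENSMUSG00000023992; chr17:48346401-48354147, plus strand) encodes a lipid-sensing receptor that signals through the adaptor TYROBP. It had 178, 204 and 163 in Ovp A, B and C, against 155, 183 and 184 in Ctrl A, B and C. Ovp B was the highest and Ctrl A the lowest library, and the groups overlapped. The limma log2 fold change was 0.063 (95% interval -0.25 to 0.37, adjusted p = 0.9995). Tyrobp, with libraries at 80.7, 99.8 and 98.3 in Ovp A, B and C and 125, 86.4 and 107 in Ctrl A, B and C, gave a limma log2 fold change of -0.18 (95% interval -0.58 to 0.22, adjusted p = 0.9995).

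**Figure D3:**
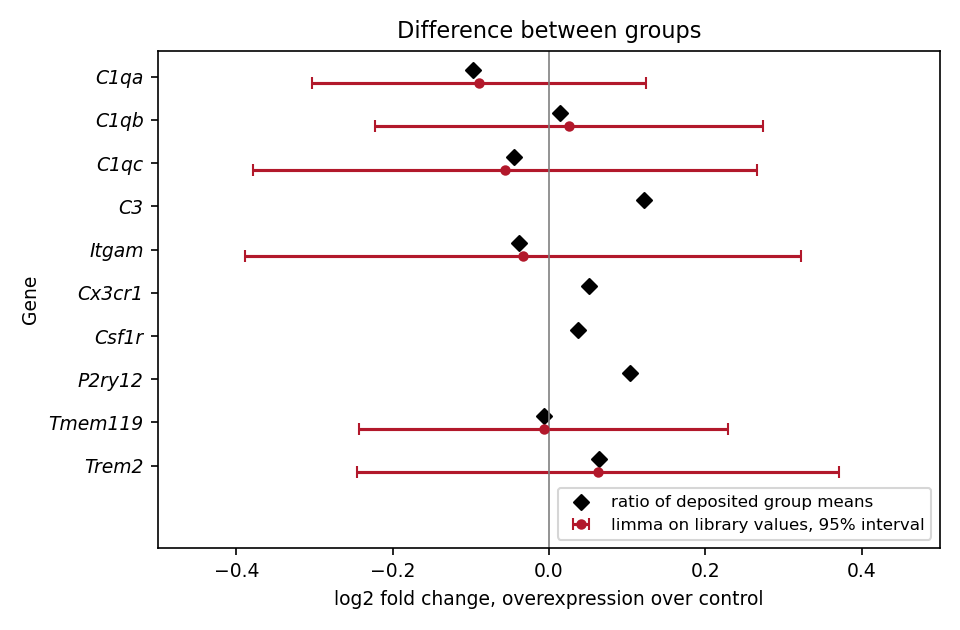
Log2 fold change, Ovp over Ctrl, of each of the 10 genes. Diamonds are ratios of the deposited group means and run from -0.097 for C1qa to 0.12 for C3; circles with bars are limma estimates with 95% intervals for the 6 fitted genes, and all 6 intervals hold 0.

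Divided by the length of the principal transcript, the group means had the same order in both groups. In mean scaled read counts per kilobase, C1qa was at 436 in Ovp and 467 in Ctrl cortex, P2ry12 at 433 and 403, C1qb at 384 and 380, Csf1r at 349 and 340, C1qc at 307 and 317, and Cx3cr1 at 255 and 246. Trem2 followed at 167 in Ovp and 160 in Ctrl cortex, Tmem119 at 153 in both, Itgam at 20.0 and 20.5 and C3 at 1.36 and 1.25. Several neighbours had overlapping ranges in Ctrl cortex. Per kilobase, the Ctrl libraries of C1qa (411 to 522), P2ry12 (375 to 431) and C1qb (323 to 443) overlapped, and so did those of Trem2 (142 to 169) and Tmem119 (146 to 168). In Ovp cortex the ranges of C1qa (431 to 444) and C1qb (381 to 389) did not overlap. Within every single library of both groups C1qa was above C1qb. The Ovp ranges of Trem2 (150 to 188) and Tmem119 (144 to 168) overlapped. The distance from Tmem119 to Itgam and from Itgam to C3 was far larger than the spread. Reads that Itgam shares with Gm49368 may be missing from its count. These lengths are from GENCODE M21 and may not be those the authors counted over. With the union of all annotated exons, C1qc was at 191 in Ovp and 198 in Ctrl cortex and Trem2 at 36.8 and 35.1, which places C1qc below Cx3cr1 and Trem2 below Tmem119. On that length P2ry12 was at 399 in Ovp and 371 in Ctrl cortex and C1qb at 384 and 380, so the order of this pair differed between the groups.

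The other gene lists were chosen with earlier results of these data known, and 0 of their genes passed an adjusted p under 0.05 in the authors' deposited table or by limma. In the authors' deposited table only Neurod6 among them had an unadjusted p under 0.05, with the lower mean in Ovp cortex. By limma only Hba-a2, a haemoglobin gene of the red blood cell list, did so among the fitted list genes (log2 fold change 0.64, 95% interval 0.17 to 1.1, unadjusted p = 0.0114, adjusted p = 0.9995), and its groups overlapped; Hba-a1 is a near-identical copy, so reads may be split between them. For 33 other microglia identity genes the median log2 fold change was 0.011, with 17 higher and 16 lower means in Ovp cortex. Among the larger means of this list were those of Laptm5, a lysosomal membrane protein gene, at 703 in Ovp and 696 in Ctrl cortex, and Tgfbr1, a TGF-β receptor gene, at 534 and 569. Sall1, a transcription factor of microglial identity that neural progenitors also express, had a mean of 520 in Ovp and 533 in Ctrl cortex. Spi1, which encodes PU.1, had 45.6, 76.2 and 64.2 in Ovp A, B and C, against 43.8, 54.0 and 47.4 in Ctrl A, B and C. Its limma log2 fold change was 0.33 (95% interval -0.17 to 0.82, adjusted p = 0.9995), and the groups overlapped. Of the 28 fitted genes of the list, Runx1 alone had groups that did not overlap, with 20.37, 29.2 and 21.7 in Ovp A, B and C and 20.36, 15.1 and 15.4 in Ctrl A, B and C, all Ovp libraries being higher, as for 4.37% of all fitted genes. The limma unadjusted p for Runx1 was 0.135, and its adjusted p was 0.9995.

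Of 22 other complement components, 9 had a mean of at least 10, and 3 (C6, Mbl1 and C1rb) were listed at 0 in both groups. The median log2 fold change was 0.14 over the 17 genes above 0 in both groups, with 12 higher and 5 lower, and 0.11 over those with a mean of at least 10. The most abundant were Cfp, which encodes properdin of the alternative pathway, at 264 in Ovp and 246 in Ctrl cortex, Masp1, a protease of the lectin pathway, at 241 and 248, and C4b, whose product the C1 complex cleaves upstream of C3, at 208 and 182. C4b libraries were 231, 152 and 241 in Ovp A, B and C, against 163, 212 and 172 in Ctrl A, B and C, and the groups overlapped. C4a and C4b are near-identical copies, so reads may be split between them. The proteases of the C1 complex were low, with C1ra at 45.1 in Ovp and 40.5 in Ctrl cortex and C1s1 at 21.3 and 22.1.

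Complement receptors and inhibitors, 25 genes with 24 above 0, had 11 higher and 13 lower means and a median log2 fold change of -0.012. The largest means were those of Clu, a secreted chaperone that blocks the terminal complex, at 9731 in Ovp and 10639 in Ctrl cortex, Sez6l2 at 5609 and 5697, and Sez6l at 5207 and 5702, the last 2 encoding neuronal proteins with complement-control domains. Srpx2, which encodes a secreted C1q-binding protein of synapses, had 51.3, 51.8 and 56.9 in Ovp A, B and C, against 48.9, 43.2 and 43.0 in Ctrl A, B and C, every Ovp library being higher, as for Runx1 (limma log2 fold change 0.24, 95% interval -0.18 to 0.66, adjusted p = 0.9995). Cr1l, a rodent inhibitor of C3 activation, was at 409 in Ovp and 380 in Ctrl cortex. C3ar1, the C3a receptor, had 23.6, 25.4 and 24.8 in Ovp A, B and C, against 41.7, 43.2 and 22.1 in Ctrl A, B and C. Ctrl A and B were high and Ctrl C lay with the Ovp libraries (limma log2 fold change -0.46, 95% interval -1.09 to 0.17, adjusted p = 0.9995).

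The list of ligands and contact signals that neurons and glia present to microglia also held the receptors Sirpa, Cd200r1 and Il1rl1. Its median log2 fold change was -0.066 over 13 genes, with 4 higher and 9 lower. Cx3cl1, the neuronal ligand of Cx3cr1, had a mean of 20331 in Ovp and 21438 in Ctrl cortex (log2 fold change -0.077; p = 0.522 in the authors' deposited table). The ligands of Csf1r were at 916 in Ovp and 876 in Ctrl cortex for Il34, and at 316 and 307 for Csf1. Sirpa, the receptor of the signal that restrains uptake, was at 8929 in Ovp and 9530 in Ctrl cortex, its ligand Cd47 at 3323 and 3363, and Nptx1, a neuronal pentraxin, at 5598 and 5067. The 14 other phagocytosis receptors and bridging proteins had 2 higher and 12 lower means and a median log2 fold change of -0.077. Their largest means were those of Lrp1 at 10223 in Ovp and 10776 in Ctrl cortex, Adgrb1 at 9406 and 9803, and Tyro3 at 2683 and 2923. The 20 genes of Trem2 signalling and of activated microglia had 9 higher and 11 lower means and a median of -0.040. Apoe, a lipid carrier made largely by astrocytes, was at 19825 in Ovp and 20552 in Ctrl cortex, and the lysosomal proteases Ctsb and Ctsd were at 7942 and 8286 and at 4344 and 4529. Cst7, Clec7a, Ccl3, Ccl4 and Ch25h, genes that activated microglia express, had means of at most 2.78 in Ovp and 3.24 in Ctrl cortex. Other genes of this list were well above that. Spp1 was at 53.5 in Ovp and 57.4 in Ctrl cortex, Gpnmb at 17.1 and 24.6, Lpl at 1308 and 1243, and Cd9 at 487 and 444.

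**Figure D4:**
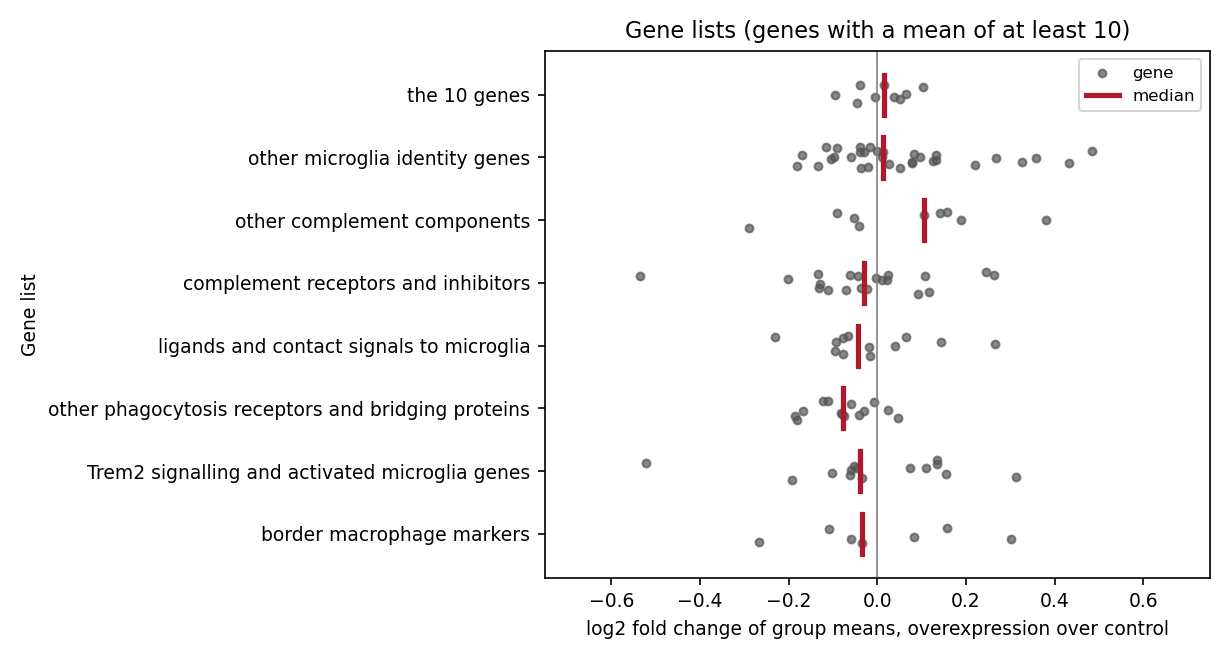
Log2 fold change of group means, Ovp over Ctrl, for genes whose mean reached 10 in 8 gene lists. Grey points are genes and red bars are list medians, which run from -0.077 for phagocytosis receptors and bridging proteins to 0.11 for other complement components, with 0.014 for the 10 genes.

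Markers of other cells were compared because several of the 10 genes, among them the C1q genes, Csf1r and Cx3cr1, are also expressed by macrophages at the borders of the brain. All 10 border macrophage markers were detected, with 4 higher and 6 lower means in Ovp cortex and a median log2 fold change of -0.048, and their summed mean was 737 in Ovp and 700 in Ctrl cortex. Stab1, the highest of them, was at 526 in Ovp and 496 in Ctrl cortex, and its Ovp library values were not resolved, while the Ctrl libraries had 414, 541 and 534 in A, B and C. The 9 recovered markers summed to 136, 148 and 350 in Ovp A, B and C, against 129, 313 and 168 in Ctrl A, B and C, so Ovp C and Ctrl B were high. Mrc1, the mannose receptor, had 53.0, 51.8 and 166 in Ovp A, B and C, against 36.7, 130 and 52.9 in Ctrl A, B and C. The libraries with the lowest border macrophage sums, Ovp A (136) and Ctrl A (129), had C1q sums of 1176 and 1463, the second lowest and the highest of the 6. The libraries with the highest border macrophage sums, Ovp C (350) and Ctrl B (313), had C1q sums of 1217 and 1116. Astrocyte markers had a median log2 fold change of -0.017, with 5 higher and 5 lower means in Ovp cortex. Oligodendrocyte markers had 0.087 (9 higher, 1 lower) and excitatory neuron markers -0.070 (1 higher, 9 lower). Endothelial and pericyte markers had 0.014 (5 higher, 5 lower) and red blood cell genes 0.21 (4 higher, 1 lower). Over all tested genes whose mean reached 100, 4917 were higher and 6728 lower. Of 14 blood leukocyte markers only Ly6c2 had a mean of at least 10, at 13.5 in Ovp and 13.8 in Ctrl cortex, and Nkg7 and Elane were at 0. Of the 10 leukocyte markers above 0 in both groups 1 had a higher and 9 a lower mean in Ovp cortex. The list summed to 46.4, 29.2 and 26.9 in Ovp A, B and C, against 48.9, 38.9 and 35.3 in Ctrl A, B and C. The 8 choroid plexus markers had a median of -0.29 and summed to 253, 218 and 249 in Ovp A, B and C, against 212, 875 and 175 in Ctrl A, B and C. Without Ctrl B the log2 fold change of C1qb was -0.086 by limma. Without Ctrl A that of C1qc was 0.049, and without Ovp A it was 0.073, so the direction of both rested on single libraries. Whether the choroid plexus, border macrophage or Y-linked reads of these libraries had a part in the C1q levels was not tested.

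**Figure D5:**
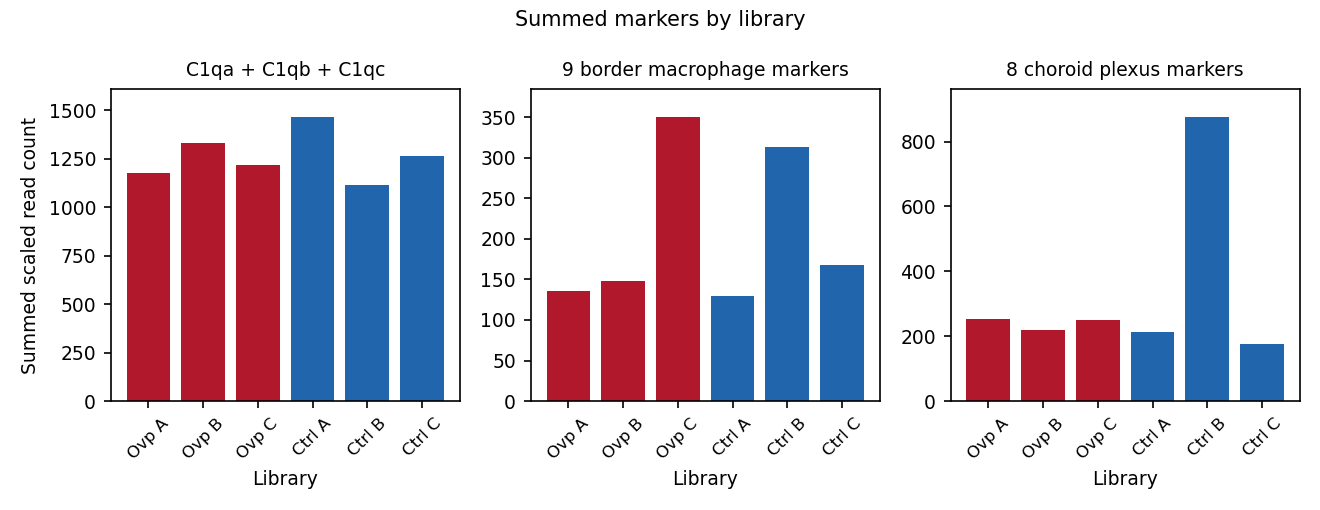
Summed scaled read counts in each library, with Ovp (red) left of Ctrl (blue), for C1qa, C1qb and C1qc, for 9 border macrophage markers and for 8 choroid plexus markers; each panel has its own axis from 0. The border macrophage sum is highest in Ovp C (350) and Ctrl B (313), and the choroid plexus sum in Ctrl B (875), where the C1q sum is lowest (1116).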

How the data were processed

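RNA-seq had been done on 3 Ovp and 3 Ctrl libraries, with Trizol extraction and an Illumina TruSeq kit per the labels' protocols. The submitters' processing notes list Bowtie2 2.0.6 and TopHat2 2.0.9; how reads were counted and tested was not given in the sources used here. For each gene and group the authors deposited 1 signal value, which the values show to be a mean of scaled read counts and which carries no SD. Per the file headers, each gene also had a p-value, raw and adjusted. Symbols were found for 46488 of 47794 genes, and fold changes were recomputed from the group means.

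Whole reads were recovered from means of up to 500 (Ovp) and 1000 (Ctrl), given to 10 significant digits. All combinations were searched up to 500; above that, or where several fitted, only libraries within 2-fold of the mean were kept. One combination resulted for 98.8% of 21698 Ovp and 99.96% of 23575 Ctrl means. In simulated means of both groups 100% of recovered values were right. The simulated libraries varied little around a common mean, so the 2-fold rule was hardly tested. The rule cannot find genes whose libraries differ widely. Kdm5d in Ctrl cortex, with 658, 0 and 0 reads, had 0 combinations within it. For Eif2s3y in Ovp cortex 2 combinations lay within it, and the one with all 1799 reads in Ovp A lay outside. The Ovp values of C1qa, C1qc and Tmem119 rest on that rule. With limma 3.58.1 (R 4.3.3) a trend model was fitted to log2(value + 1) of 10053 recovered genes, those with means of 10 or more (58.8% of all such genes), with Benjamini-Hochberg adjustment. The scale understates folds of low genes. On simulated libraries of 9810 genes the fit called 82.9% of the 187 genes changed 2-fold, with 7 false calls among the unchanged genes. The 10 genes and the 15 gene lists, these 10 included, were chosen with earlier results of these data known. The text names, by rule, the 10 genes, the 3 highest means of each list (not for lists of other cell types, given in sum) and the 5 genes of nearest pattern; genes named for their role were picked after their values were seen, and 1 gene that the rule names is not reported here. Motifs were searched in 250 bases upstream of RefSeq start sites.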

Additional observations from a re-analysis of the deposited data

How the results depend on the processing

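By the authors' test 0 genes passed (161 at an unadjusted p under 0.05), also at an adjusted p under 0.1 and over genes with means of at least 10 or 100. By limma 0 genes passed (208 at an unadjusted p under 0.05), also with pseudocounts of 0.5 and 5, means of at least 100, centred libraries, no trend (333 at an unadjusted p under 0.05) and without each library in turn (0 to 0). With no filter on low values 1 gene passed, mt-Tp, a mitochondrial tRNA gene (335 in Ovp and 146 in Ctrl cortex); the cause was not tested. The median log2 fold change of the 10 genes, 0.026, ran from -0.020 over the 6 limma estimates to 0.057 with group means divided by their totals, less than the 0.092 spread between libraries. That division gave Tmem119 0.026 in place of -0.0063, since the totals differ by -0.032 on the log2 scale. Without 1 library each, the limma log2 fold change ranged from -0.18 to -0.0057 for C1qa, -0.086 to 0.14 for C1qb, -0.21 to 0.073 for C1qc, -0.092 to 0.059 for Itgam, -0.077 to 0.063 for Tmem119 and -0.024 to 0.14 for Trem2. Of these 36 values 0 passed the threshold, and the sign turned in 9. No paired analysis was possible because the group means carry no replicate numbers. Depth limited C3 most, and Csf1r and Cx3cr1 have no library values and so no spread.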

Other observations

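Of the low complement genes, 4 had libraries that did not overlap between groups, and they are named after their values were seen. Itgax, which encodes the α chain of complement receptor 4, had 3, 0 and 0 reads in Ovp A, B and C, against 4, 4 and 3 reads in Ctrl A, B and C. C8a, which encodes a chain of the terminal complex, had 2, 3 and 3 reads in Ovp A, B and C, against 1, 1 and 0 reads in Ctrl A, B and C. Cr2, a complement receptor best known from B cells, had 15, 12 and 10 reads in Ovp A, B and C, against 7, 4 and 8 reads in Ctrl A, B and C. C5ar1, the C5a receptor, had 8, 6 and 6 reads in Ovp A, B and C, against 5, 5 and 2 reads in Ctrl A, B and C. The groups overlapped for the other listed complement genes with a mean of 1 to under 10, which were C3, C1rl, C1s2, C2, Cfb, Hc, C8b and Cfi. Groups did not overlap for 9.24% of the 6615 recovered genes with a mean of 1 to under 10. The authors' deposited table gave an unadjusted p of 0.136 to Itgax, 0.348 to C8a, 0.239 to Cr2 and 0.576 to C5ar1.

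Over 6181 recovered genes whose mean reached 50, those nearest to the mean pattern of the 6 fitted genes over the 6 libraries were Zcchc10, Rmi1, Pigp, Srrd and Suv39h1, by the root-mean-square difference of centred log2 values (0.014 to 0.035, against a median of 0.17). None of the 5 was in a gene list. The mean pattern itself ran from -0.11 in Ctrl B to 0.095 in Ctrl A. The 6 genes scattered around it, with C1qc at -0.29 and C1qb at 0.031 in Ovp A, where the mean was -0.078. Among so many genes some are always nearest, so the 5 names show no tie to the 6 genes.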
